A study of Mus musculus with 47 samples.

Results

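A set of 10 genes of T cells and natural killer (NK) cells was followed through bulk RNA-seq of mouse melanoma tumors. They were taken by name from the table of read counts, which holds 56748 genes, with gene identifiers matched to symbols in the mouse GENCODE annotation. Each had enough counts to be tested, among 16213 genes that did. *Cd3e*, *Cd3d* and *Cd3g* encode the signalling chains that every T cell receptor needs at the cell surface. *Cd4*, *Cd8a* and *Cd8b1* encode the coreceptors that split T cells into helper and killer lineages, and *Gzma*, *Gzmb*, *Prf1* and *Nkg7* belong to the cytotoxic granules of killer T cells and NK cells.

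Tumors were grown under the skin of male C57BL/6 mice, an immunocompetent host of the same strain background as the cells, whose age the study's methods state for its mouse experiments in general and the labels do not give for each tumor. The injected line was B78-D14, an amelanotic B16-derived melanoma line without Cdkn2a, in which a mitochondrial base editor had placed a premature stop at m.12,436 of *Mt-Nd5*, a complex I subunit gene of the mitochondrial genome. The groups were 7 tumors from cells with the mutation on 60% of their mtDNA copies (m.12,436 60% tumors), 7 from cells with it on 40% (m.12,436 40% tumors) and 4 from wild-type cells (control tumors, labelled 001 to 004 and called 1 to 4 here), all untreated. The table names the mutant tumors high and low, words that GEO's labels do not use. They were read as 60% and 40% from the study's own wording and from numbers that reach 7 only in these groups. Each line is 1 edited population, so that the line and the mutation cannot be told apart, and 1 fragment of each tumor was sequenced. The comparisons ask whether the level of T and NK cell RNA in a tumor goes with the share of mutated mtDNA. In bulk tissue, fewer cells of a type and less RNA per cell cannot be told apart.

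A T cell reads peptides on other cells through the T cell receptor, whose own chains have no signalling tail. The CD3 chains carry the signal inward, and CD4 or CD8 brings the kinase Lck to it. Killer T cells and NK cells then release perforin, which opens membranes, and granzymes, proteases that enter through the openings and start cell death. In solid tumors these cells arrive from the blood, so that their genes are read from a small share of the RNA.

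Between 16475735 and 31218475 reads per tumor were counted on genes. Cultured control B78-D14 cells, measured as 4 cultures with 27901430 to 36173502 counted reads, gave 1 read for *Cd8b1*, 1 read for *Prf1* and 0 for the other members over all 4 cultures. Genes of other tissues differed between fragments. Skeletal muscle genes, 6 listed, summed to 39.2 to 196 CPM (reads of a gene scaled to 1000000 counted reads) in the m.12,436 40% tumors, but to under 3 CPM in control tumors 3 and 4 and in m.12,436 60% tumors 1, 2, 5 and 6. The melanocyte genes were highest in control tumor 3, with a summed level of 66.2 CPM against 15.2 to 28.1 CPM in the other tumors. The macrophage gene *Adgre1* gave 974 to 2922 reads.

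The bases just before the start of the 3 *Cd3* genes and of 3 granule genes are shown because these genes varied together from tumor to tumor, and because their promoters are where lymphocyte transcription factors are known to act. They are the 200 bases before the start of the canonical GENCODE transcript in GRCm39, written 5′ to 3′ on the strand of the gene. Capitals mark the letters TGTGGT (bound by RUNX factors), AGGAAG (ETS factors), CANNTG (the E-box of E proteins), TGANTCA (AP-1) and AGGTGT (T-box factors) on either strand.

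Cd3e, chr9:44920912-44921111, - strand: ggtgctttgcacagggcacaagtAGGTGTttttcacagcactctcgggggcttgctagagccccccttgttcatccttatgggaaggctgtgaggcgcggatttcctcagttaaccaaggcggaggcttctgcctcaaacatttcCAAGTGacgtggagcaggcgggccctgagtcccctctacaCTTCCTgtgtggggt
Cd3d, chr9:44892883-44893082, + strand: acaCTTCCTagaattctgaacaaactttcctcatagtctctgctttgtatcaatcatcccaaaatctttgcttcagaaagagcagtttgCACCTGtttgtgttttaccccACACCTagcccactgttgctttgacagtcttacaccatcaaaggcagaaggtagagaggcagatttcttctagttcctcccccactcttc
Cd3g, chr9:44891736-44891935, - strand: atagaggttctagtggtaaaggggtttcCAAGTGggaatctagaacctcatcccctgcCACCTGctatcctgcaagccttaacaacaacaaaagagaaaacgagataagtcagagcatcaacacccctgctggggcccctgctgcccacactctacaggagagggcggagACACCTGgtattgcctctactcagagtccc
Gzmb, chr14:56499718-56499917, - strand: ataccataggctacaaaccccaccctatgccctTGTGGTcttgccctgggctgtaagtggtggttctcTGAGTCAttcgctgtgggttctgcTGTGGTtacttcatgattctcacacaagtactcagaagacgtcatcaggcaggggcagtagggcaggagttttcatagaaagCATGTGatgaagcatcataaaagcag
Prf1, chr10:61133346-61133545, + strand: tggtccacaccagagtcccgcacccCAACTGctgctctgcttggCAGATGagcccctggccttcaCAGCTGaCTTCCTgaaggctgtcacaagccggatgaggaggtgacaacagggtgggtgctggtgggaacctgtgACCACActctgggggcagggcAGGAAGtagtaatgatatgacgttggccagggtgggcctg
Nkg7, chr7:43086297-43086496, + strand: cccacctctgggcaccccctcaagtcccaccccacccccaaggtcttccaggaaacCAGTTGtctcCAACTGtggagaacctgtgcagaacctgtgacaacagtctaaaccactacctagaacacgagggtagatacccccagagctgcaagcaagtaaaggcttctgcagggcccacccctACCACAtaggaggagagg

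*Cd3d* and *Cd3g* stand back to back on chromosome 9, with their starts 1348 bases apart, and *Cd3e* lies beside them in the same cluster. The T-box letters were found before all 3 *Cd3* genes and before *Gzma*, 4 of 10 members, against 9.79% of 21757 protein-coding promoters of the same length. Before *Cd3g* and *Gzma* they overlap an E-box, because ACACCT and CACCTG share letters. The RUNX letters stood before *Gzma*, *Gzmb*, *Prf1* and *Nkg7*, all 4 granule genes, and before 0 of the other 6 members, against 10.5% of all promoters. ETS letters were before *Cd3e*, *Cd3d* and *Prf1* (24.3% of promoters), an AP-1 match before *Gzmb* (4.94%) and an E-box before 9 members (56.1%). Every member but *Cd8b1* had a match to some of these letters. Such matches are descriptions of letters and do not show that a factor was bound. The GC content of the 10 windows lay between 43.5% and 60.5%, with a median of 52% against 54.5% over all promoters.

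Levels of the members were low. Reads per tumor ran from 6 for *Cd4* in m.12,436 60% tumor 5 to 368 for *Gzmb* in m.12,436 60% tumor 4. On a scale that allows genes to be compared, CPM per kilobase of exon, *Gzmb* averaged 4.51 ± 2.33 and *Nkg7* 3.89 ± 2.06 (SD, n = 18 tumors). *Prf1* followed with 1.65 ± 0.767, *Cd8a* with 1.17 ± 0.849 and *Gzma* with 1.14 ± 0.617. The 3 *Cd3* genes, *Cd4* and *Cd8b1* lay between 0.775 and 0.953. Neighbours in this order differed by less than the SD between tumors, except *Nkg7* and *Prf1*.

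**Figure D1:**
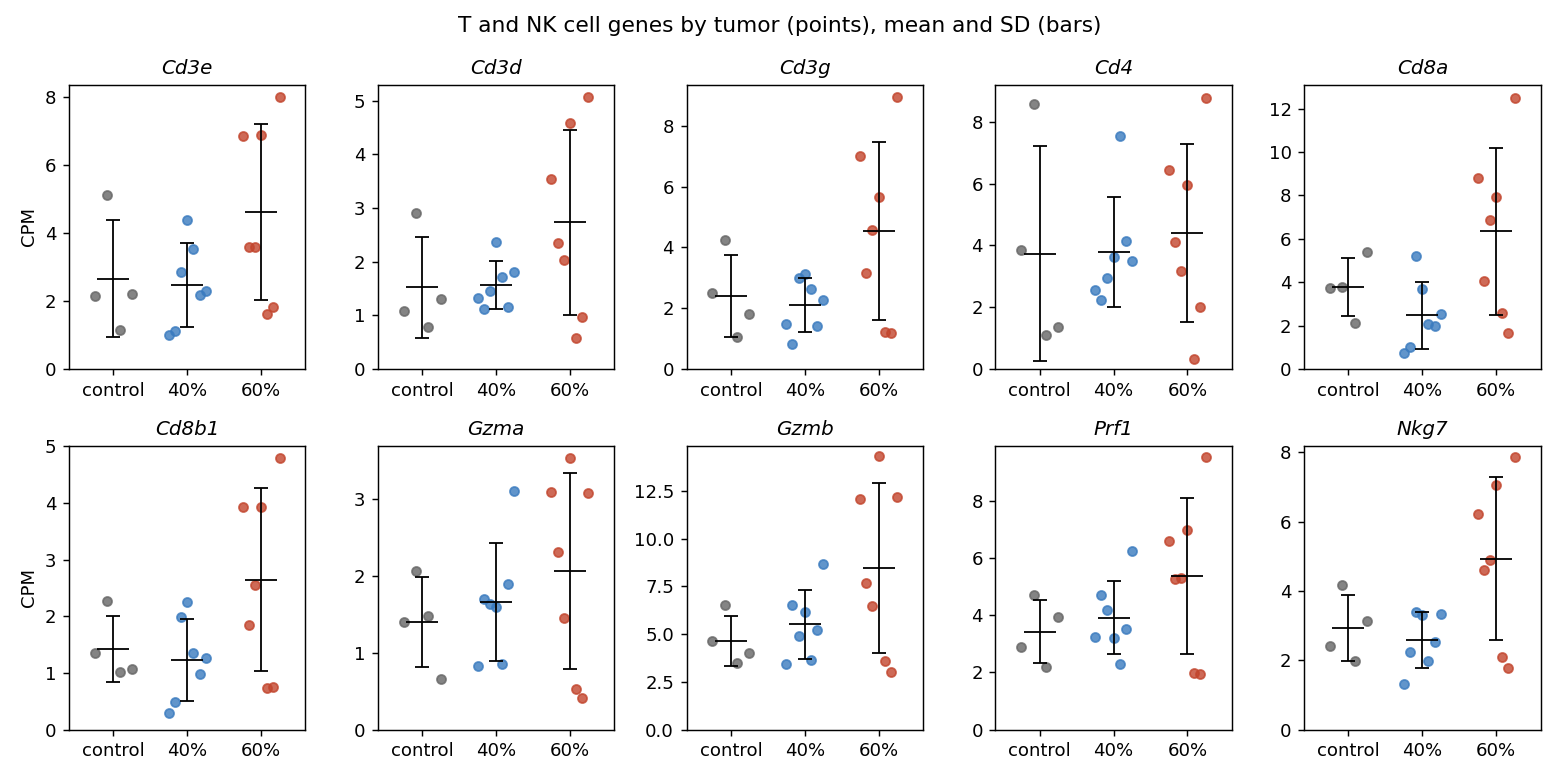
Level of each member (vertical axis, CPM) in control, m.12,436 40% and m.12,436 60% tumors, 1 point per tumor, with the group mean and SD as bars. The m.12,436 60% tumors had the largest SD for every member but *Cd4*, from values within or below the range of the controls to values above all other tumors.

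Fitted levels of the *Cd3* genes, the signalling chains of the receptor, were 1.73 to 1.89 times as high in m.12,436 60% tumors as in control tumors, but none passed the test and every group overlapped. *Cd3e* (chromosome 9, 44910037 to 44920925, − strand), the chain on which assembly of the complex depends, was at 2.16, 5.13, 1.15 and 2.19 CPM in control tumors 1 to 4. In m.12,436 60% tumors it had a lowest value of 1.63, a median of 3.60 and a highest of 8.0 CPM. In m.12,436 40% tumors the same values were 0.996, 2.28 and 4.38 CPM. Control tumor 2 exceeded 4 of the 7 m.12,436 60% tumors, and m.12,436 60% tumors 1, 4 and 7 exceeded every other tumor. The log2 fold change against control was 0.79 (SE 0.50, 95% interval −0.25 to 1.84, adjusted p = 0.441, edgeR), and against m.12,436 40% tumors 0.91 (0.03 to 1.79, adjusted p = 0.335, edgeR). A long noncoding RNA, Gm48719, runs antisense through *Cd3e* with 0 to 3 reads per tumor. Whether the counting used strand is not given in the sources used here, so that reads of both cannot be told apart.

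*Cd3g* (chromosome 9, 44880870 to 44891735, − strand), the gamma chain, showed the largest difference from control among the members. It was at 2.52, 4.23, 1.05 and 1.82 CPM in control tumors 1 to 4. In m.12,436 60% tumors it ran from 1.17 over a median of 4.57 to 8.95 CPM, and in m.12,436 40% tumors from 0.824 over 2.28 to 3.14 CPM. Of the m.12,436 60% tumors, 4 of 7 exceeded the highest control and 5 of 7 the highest m.12,436 40% tumor. The log2 fold change was 0.92 (SE 0.52, −0.18 to 2.01, adjusted p = 0.400, edgeR) against control and 1.11 (SE 0.44, 0.18 to 2.03, adjusted p = 0.256, edgeR) against m.12,436 40% tumors. *Cd3d* (chromosome 9, 44893083 to 44899173, + strand), the delta chain, had the lowest level per kilobase of the 3, by less than the SD between tumors. Its mean in CPM was 1.52 ± 0.944 CPM (SD, n = 4) in control, 1.56 ± 0.440 CPM (SD, n = 7) in m.12,436 40% and 2.73 ± 1.73 CPM (SD, n = 7) in m.12,436 60% tumors. The m.12,436 60% group held both its highest value, 5.07 CPM in tumor 7, and its lowest, 0.577 CPM or 11 reads in tumor 5.

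*Cd8a* and *Cd8b1*, whose products form the CD8 coreceptor of killer T cells, had the largest fitted differences between the mutant groups, none past the threshold, while that of *Cd4* was the smallest of the members in both comparisons of m.12,436 60% tumors. *Cd8a* (chromosome 6, 71350411 to 71356157, + strand) was at 3.73, 3.76, 2.14 and 5.41 CPM in control tumors 1 to 4. It ran from 0.747 over a median of 2.06 to 5.22 CPM in m.12,436 40% tumors, and from 1.65 over 6.88 to 12.5 CPM in m.12,436 60% tumors. The 2 lowest values of all were m.12,436 40% tumors 1 and 2, and m.12,436 60% tumors 1, 3, 4 and 7 were the 4 highest. Between the mutant groups the log2 fold change was 1.37 (SE 0.45, 0.43 to 2.31, adjusted p = 0.164, edgeR), a 2.58-fold difference that did not pass the threshold. It was 0.76 (−0.33 to 1.86, adjusted p = 0.487, edgeR) for 60% against control and −0.60 (−1.69 to 0.49, adjusted p = 0.945, edgeR) for 40% against control.

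*Cd8b1* (chromosome 6, 71299772 to 71315087, + strand) lies upstream of *Cd8a* in the same direction. It was at 1.35, 2.27, 1.02 and 1.07 CPM in the controls. The m.12,436 40% tumors ran from 0.290 over 1.26 to 2.25 CPM, where the lowest rests on 7 reads. The m.12,436 60% tumors ran from 0.734 over 2.55 to 4.79 CPM, and 4 of the 7 were above every other tumor. The log2 fold change was 0.89 (SE 0.53, −0.22 to 2.00, adjusted p = 0.417, edgeR) against control and 1.12 (SE 0.45, 0.18 to 2.06, adjusted p = 0.257, edgeR) against m.12,436 40% tumors. An annotated noncoding gene, Gm68030, overlaps it on the same strand and was not analysed here.

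*Cd4* (chromosome 6, 124841655 to 124874758, − strand), the helper T cell coreceptor, is in mice also found on some dendritic cells and macrophages. It was at 3.86, 8.60, 1.09 and 1.35 CPM in control tumors 1 to 4, a 7.91-fold range. In m.12,436 40% tumors it ran from 2.23 over 3.51 to 7.53 CPM, and in m.12,436 60% tumors from 0.315 over 4.12 to 8.77 CPM. Its log2 fold changes were 0.24 (SE 0.62, −1.07 to 1.54) for 60% against control, 0.02 (−1.28 to 1.32) for 40% against control and 0.22 (−0.89 to 1.33) for 60% against 40%. The sign of the first turned without control tumor 3, control tumor 4 or m.12,436 60% tumor 7 (−0.07, −0.03 and −0.03), and that of the last without m.12,436 60% tumor 7 (−0.05).

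The balance of the coreceptors differed from tumor to tumor. *Cd8a* made up 56.5% ± 21.5 (SD, n = 4) of the reads of *Cd8a* and *Cd4* in control tumors, 37.8% ± 15.5 (SD, n = 7) in m.12,436 40% and 60.9% ± 14.4 (SD, n = 7) in m.12,436 60% tumors. The lowest share was 21.5% in m.12,436 40% tumor 5, from 53 of 247 reads (exact 95% binomial interval 16.5 to 27.1%). The highest was 89.1% in m.12,436 60% tumor 5, from 49 of 55 reads (77.8 to 95.9%). These intervals cover counting error only, and the 2 genes differ in exon length, so that the share is not one of cells.

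The granule genes *Gzmb*, *Prf1*, *Nkg7* and *Gzma* had fitted levels 1.46 to 1.82 times as high in m.12,436 60% as in control tumors, and none passed the test. *Nkg7* (chromosome 7, 43086497 to 43087678, + strand), a granule membrane protein of killer cells, came closest between the mutant groups. It was at 2.43, 4.16, 1.98 and 3.13 CPM in control tumors 1 to 4. It ran from 1.33 over a median of 2.53 to 3.39 CPM in m.12,436 40% tumors and from 1.79 over 4.90 to 7.86 CPM in m.12,436 60% tumors. In 5 of the 7 m.12,436 60% tumors it exceeded every control and every m.12,436 40% tumor, and tumors 5 and 6 did not. The log2 fold change was 0.93 (SE 0.31, 0.30 to 1.57, adjusted p = 0.159, edgeR) against m.12,436 40% tumors and 0.76 (SE 0.36, −0.0018 to 1.52, adjusted p = 0.308, edgeR) against control.

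*Gzmb* (chromosome 14, 56496295 to 56499717, − strand) encodes granzyme B, the protease that starts cell death in the target. It was at 4.63, 6.50, 3.49 and 4.01 CPM in the controls. It ran from 3.44 over 5.23 to 8.68 CPM in m.12,436 40% tumors and from 3.00 over 7.69 to 14.3 CPM in m.12,436 60% tumors. Tumors 1, 4 and 7 of the 60% group were above all others, while its tumor 6 was the lowest of all 18. Against control the log2 fold change was 0.86 (SE 0.38, 0.06 to 1.66, adjusted p = 0.273, edgeR), and against m.12,436 40% tumors 0.62 (−0.05 to 1.29, adjusted p = 0.392, edgeR). Granzyme genes next to it on the chromosome are similar in sequence, and how reads matching several were counted was not examined.

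*Prf1* (chromosome 10, 61133546 to 61140461, + strand), which encodes perforin, averaged 3.42 ± 1.10 CPM (SD, n = 4) in control, 3.91 ± 1.28 CPM (SD, n = 7) in m.12,436 40% and 5.37 ± 2.73 CPM (SD, n = 7) in m.12,436 60% tumors. In 5 of 7 m.12,436 60% tumors it exceeded the highest control, at 4.70 CPM, and in tumors 5 and 6 it was below the lowest, at 2.21 CPM. *Gzma* (chromosome 13, 113230355 to 113237524, − strand), granzyme A, averaged 1.40 ± 0.579, 1.66 ± 0.761 and 2.06 ± 1.28 CPM in the same order of groups. Its log2 fold change against control was 0.54 (SE 0.50) in m.12,436 60% and 0.24 (SE 0.50) in m.12,436 40% tumors, and m.12,436 40% tumor 7, at 3.10 CPM, was as high as the m.12,436 60% tumors 1 and 7, at 3.09 and 3.08 CPM.

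**Figure D2:**
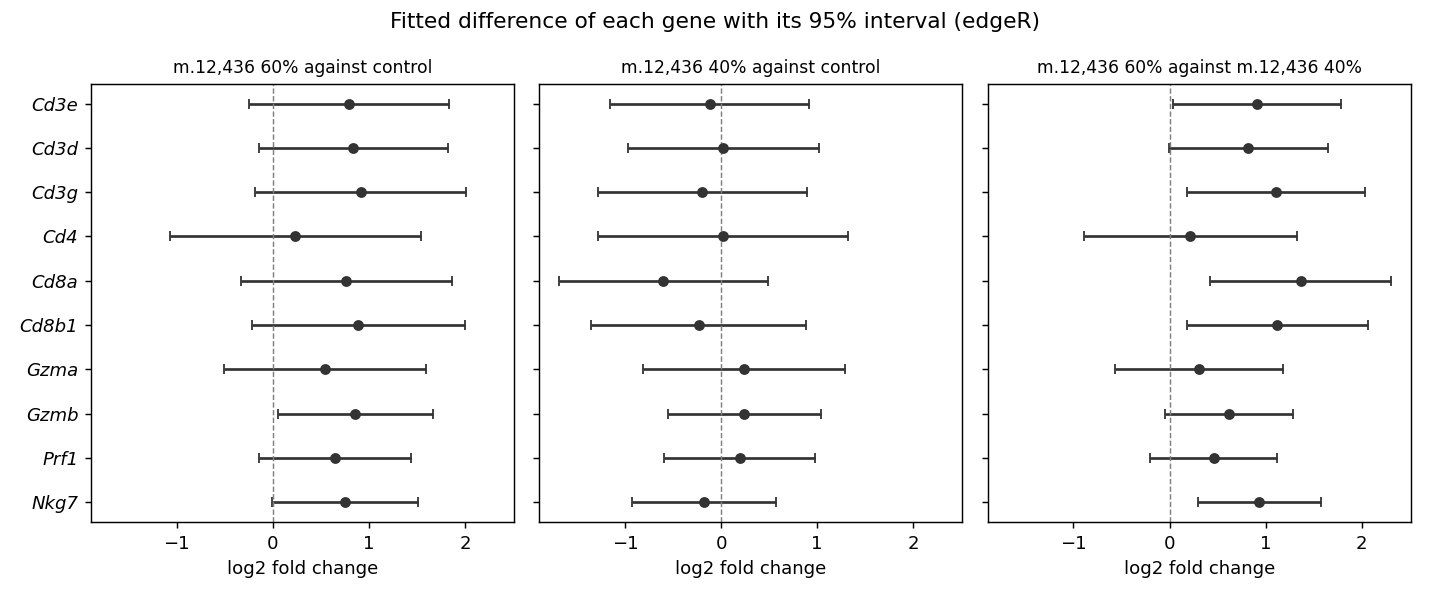
Fitted log2 fold change of each member (horizontal axis) with its 95% interval for the 3 comparisons; the dashed line is no difference. All points lie above 0 in both comparisons of m.12,436 60% tumors, and around 0 for m.12,436 40% against control. For 60% against control all intervals but that of *Gzmb* cross 0. For 60% against 40% those of *Cd3e*, *Cd3g*, *Cd8a*, *Cd8b1* and *Nkg7* do not cross 0 and the others do.

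Against control tumors, 0 of 10 members passed an adjusted p of 0.1 in m.12,436 60% tumors, where 2.31% of all genes tested did (edgeR). At an unadjusted p under 0.05 only *Gzmb* was higher, 1 of 10 against 8.0% of all genes higher at that level, so that the share lay near the background. No member had groups that did not overlap, against 1.41% of all genes higher without overlap. All 10 fitted differences were above 0, with a median log2 fold change of 0.78, where 49.4% of all genes were above 0 and their median was −0.0025.

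Between m.12,436 40% and control tumors 0 of 10 members passed, and 0.00% of all genes did (edgeR). At an unadjusted p under 0.05 no member was higher (2.24% of all genes were), and none was higher without overlap (0.173% were). Fitted differences were above 0 for 5 of 10 members, with a median of −0.05, against 51.3% of all genes with a median of 0.0043. The sign depended on control tumor 2. Without it 9 of 10 fitted differences were above 0, with a median of 0.42, and without control tumor 3 it was 3 of 10, with a median of −0.31. For *Cd8a* the difference was −0.60, the one farthest from 0, and −0.89 to −0.37 as each tumor was left out. The widest interval, that of *Cd4*, spans −1.28 to 1.32.

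Between the mutant groups (60% against 40%) 0 of 10 passed, where 1.81% of all genes did (edgeR). At an unadjusted p under 0.05 *Cd3e*, *Cd3g*, *Cd8a*, *Cd8b1* and *Nkg7* were higher, 5 of 10 members against 6.97% of all genes. None was higher without overlap (0.315% of genes). All 10 were above 0 with a median of 0.86, where 48.9% of all genes were above 0 with a median of −0.0036. The comparison shares its m.12,436 60% tumors with that against control, and the values of the members are therefore not independent between them. Members also varied together over the same tumors, so that the counts of members in each comparison are not counts of independent genes. DESeq2 called *Cd8a* and *Nkg7* here (adjusted p = 0.0824 and 0.0611) and no member in the other comparisons, and limma-voom called none in any. The call of *Nkg7* also passed without m.12,436 60% tumor 5 or 6 (adjusted p = 0.0990 and 0.0757, edgeR), and that of *Cd8a* without m.12,436 60% tumor 6 or m.12,436 40% tumor 3 (adjusted p = 0.0934 and 0.0951, edgeR).

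In m.12,436 60% tumors 1, 2, 4 and 7 all 10 members were above their median over the 18 tumors, and in tumors 5 and 6 none was. Tumor 7 had the highest value of 8 members and tumor 4 of the other 2, and 10 and 9 of their members exceeded every control. Tumor 5 lay below the lowest control for 5 members and tumor 6 for 6. The mean log2 CPM over the members was 0.362 and 0.542 in tumors 5 and 6, against 1.88 to 2.92 in the other 5. Among controls, tumor 2 had all 10 members above the median (mean log2 CPM 2.05), and tumor 3 had none (0.651). The m.12,436 40% tumors lay between 0.486 and 1.70.

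**Figure D3:**
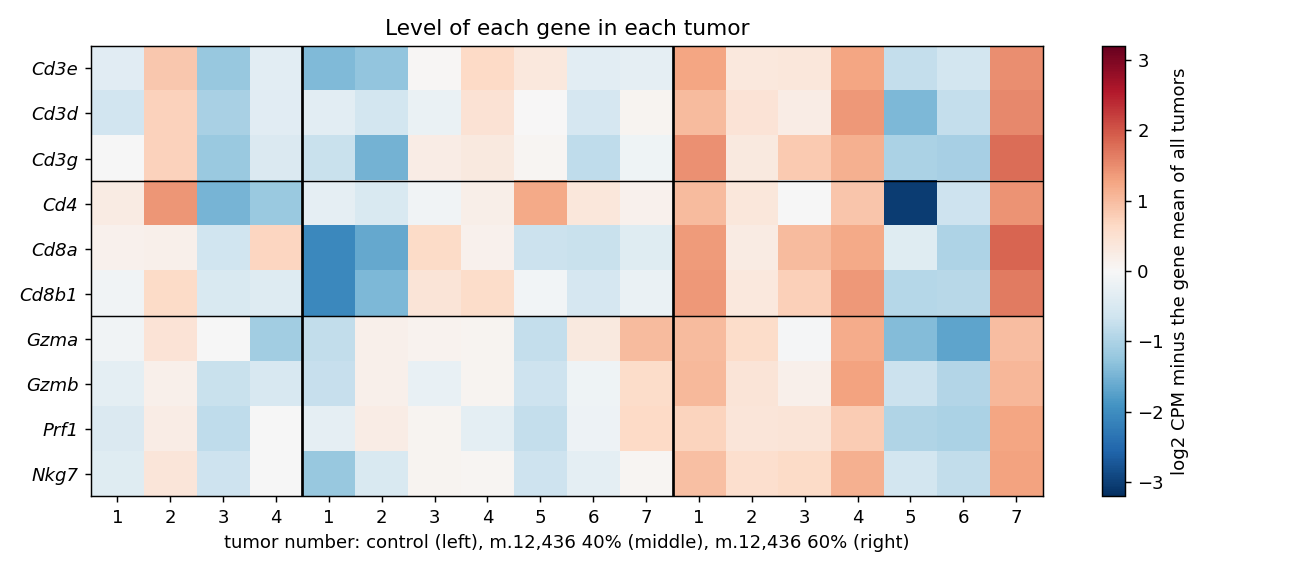
Log2 CPM of each member (rows) in each tumor (columns) minus the mean of the gene over the 18 tumors; vertical lines part the groups and horizontal lines the roles. Columns of one colour show that the members move as a set, high in m.12,436 60% tumors 1, 4 and 7 and low in tumors 5 and 6.

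After the group means were taken off, the members varied together. Pearson's r between pairs of members over the 18 tumors lay between 0.52 and 0.94, with a median of 0.81 over the 45 pairs, as a description of values from the same libraries. It was 0.89 to 0.93 within the *Cd3* genes and 0.84 to 0.94 within the granule genes. *Cd8a* and *Cd8b1* stood at 0.92, *Cd4* and *Cd8a* at 0.52, the lowest pair, and *Cd3e* and *Cd8b1* at 0.94, the highest. Between *Cd3* and granule genes r was 0.61 to 0.87. In m.12,436 40% tumors these sets parted in places. Tumor 2 had the lowest *Cd3g* of all, 0.824 CPM, with *Gzmb* at 6.55 CPM, above every control, and tumor 7 had the highest *Gzma*, *Gzmb* and *Prf1* of its group with *Cd3e* at 2.28 CPM, its group's median.

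The genes with the most similar pattern, by Pearson's r of the deviations over 18 tumors among 13570 genes, differed between roles. For *Cd3e* they included *Plxnc1*, the receptor chain *Trbc2*, *Ciita* and *Il18r1*, all at an r of 0.96. For *Cd8b1* they were *H2-Aa*, *H2-Eb1*, *Ciita*, *H2-Ab1* and *H2-DMb1* (0.96), which are genes of MHC class II presentation or, for *Ciita*, its master regulator. For *Gzmb* they were *Samhd1*, *Themis2*, *Fgl2*, *Phf11b* and *Ube2l6* (0.94 to 0.95). None of the genes named here passed the threshold in any comparison.

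*Ptprc*, which encodes CD45, the surface phosphatase of all nucleated blood cells, had no reads in cultured cells. It was at 68.2, 95.8, 51.0 and 77.0 CPM in control tumors 1 to 4, at 55.3 to 103 CPM in m.12,436 40% and at 81.3 to 154 CPM in m.12,436 60% tumors. The difference of 60% tumors was 0.61 (SE 0.19, adjusted p = 0.135, edgeR) against control and 0.49 (SE 0.16, adjusted p = 0.169, edgeR) against m.12,436 40% tumors. Each member followed *Ptprc*, with an r of 0.64 for *Gzma* to 0.93 for *Cd3e* over the 18 tumors. Other lists moved with the members too. The mean level of the endothelial genes had an r of −0.42 (*Gzma*) to −0.84 (*Cd3e* and *Cd8a*), larger in size than that of *Ptprc* for *Cd8a* (0.79). Macrophage genes had 0.24 (*Cd8a*) to 0.74 (*Cd4*), above *Ptprc* for *Cd4* (0.71) and *Gzma* (0.68 against 0.64). Skeletal muscle genes, which differed between fragments, had 0.37 (*Cd8a*) to 0.63 (*Cd4*). All these levels come from the same libraries, and the part of these cells in the members' values was not tested. With the log2 level of *Ptprc* as a covariate all but a few fitted differences of m.12,436 60% tumors changed sign. Against control 0 of 10 members were then above 0 (median −0.64), and against m.12,436 40% tumors 2 of 10 (median −0.31), with 0 members called. The same covariate left 16 and 35 genes called in all.

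Summed reads of the *Cd3* genes per read of *Ptprc* were 0.0850 ± 0.0305 (SD, n = 4) in control, 0.0756 ± 0.0202 (SD, n = 7) in m.12,436 40% and 0.0987 ± 0.0423 (SD, n = 7) in m.12,436 60% tumors. Those of the granule genes were 0.170 ± 0.0137, 0.172 ± 0.0463 and 0.176 ± 0.0616. The m.12,436 60% tumors fell on both sides. Tumors 1, 4 and 7 had 0.133 to 0.143 *Cd3* reads per *Ptprc* read, the 3 highest values of all, while tumors 5 and 6 had 0.0404 and 0.0487. Tumors 5 and 6 nonetheless had *Ptprc* at 84.4 and 81.3 CPM, above 3 of the 4 controls, and the lowest granule reads per *Ptprc* read of all tumors, 0.0970 and 0.0876.

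**Figure D4:**
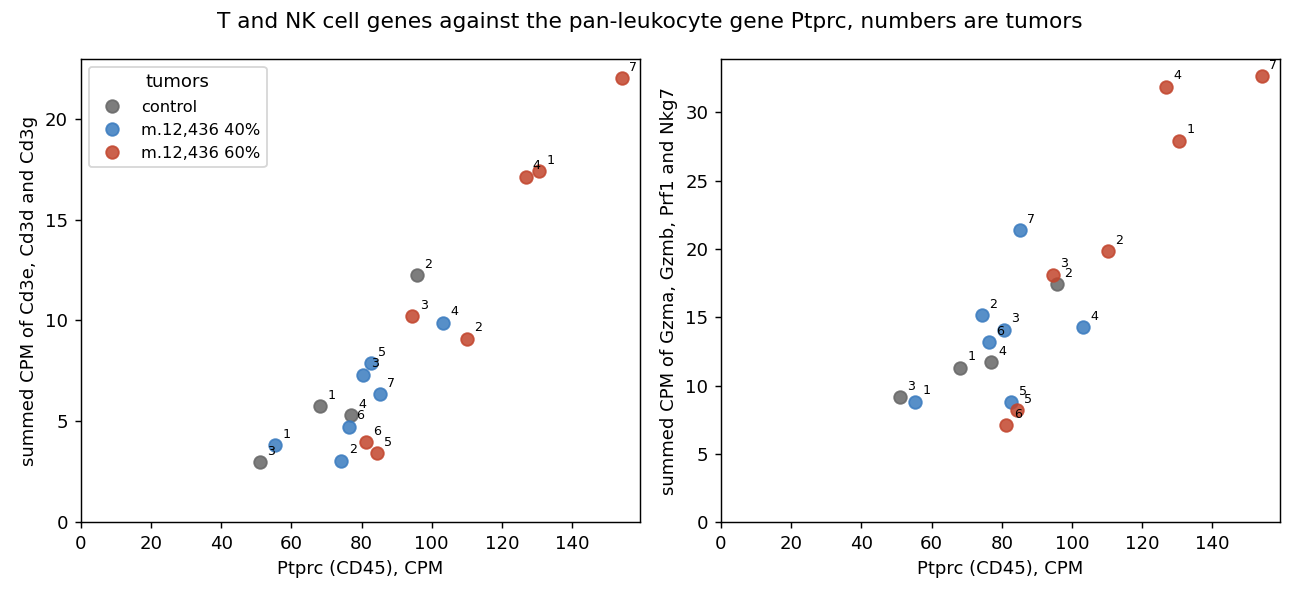
Summed CPM of the *Cd3* genes (left) and of the granule genes (right) against *Ptprc* (horizontal axis, CPM), 1 point per tumor with its number. Tumors with more *Ptprc* have more of both, and m.12,436 60% tumors 5 and 6 lie low at a *Ptprc* level of about the middle of all tumors.

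Of 77 further genes of T and NK cells in 6 roles, 71 had enough counts to be tested, and 2 stayed at 10 reads or fewer in every tumor. In m.12,436 60% against control tumors *Srgn* and *Il2rg* rose, 2 of 71, and none fell (2.31% of all genes were called). Fitted differences were above 0 for 67 of 71, with a median of 0.65. At an unadjusted p under 0.05, 13 were higher and 2 lower (1297 and 1348 of all 16213 genes). Against m.12,436 40% tumors *Srgn*, *Il2rg*, *Ccl5* and *Lcp2* rose, 4 of 71, and none fell (1.81% of all genes), with 66 above 0 and a median of 0.58. At an unadjusted p under 0.05, 20 were higher and 1 lower (1130 and 1155 of all genes). For m.12,436 40% against control tumors 0 of 71 were called (edgeR), by DESeq2 and limma-voom also 0. There 1 gene was higher and 1 lower at an unadjusted p under 0.05 (363 and 462 of all genes), 41 were above 0 and the median was 0.04.

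*Srgn* encodes serglycin, the proteoglycan on which granzymes and perforin are packed in granules, and is also made by mast cells, macrophages and other leukocytes. It was at 64.5, 56.3, 64.4 and 79.1 CPM in control tumors 1 to 4, and at 96.4 to 128 CPM in m.12,436 60% tumors, all above every control. The rise was 0.68 (SE 0.16, adjusted p = 0.0528, edgeR) against control and 0.65 (SE 0.14, adjusted p = 0.0311, edgeR) against m.12,436 40% tumors. The first was no longer called without control tumor 1 (0.67, adjusted p = 0.158, edgeR) or 3 (0.68, adjusted p = 0.215, edgeR), and the second was called whichever tumor was left out. Unlike the members, *Srgn* was as high in m.12,436 60% tumors 5 and 6 (104 and 96.6 CPM) as in tumors 1 and 7 (96.4 and 97.9 CPM). *Il2rg*, the receptor chain shared by the cytokines IL-2, IL-7 and IL-15, averaged 21.6 ± 3.81 CPM in control, 21.7 ± 2.59 CPM in m.12,436 40% and 32.2 ± 7.32 CPM in m.12,436 60% tumors (SD, n = 4, 7 and 7). It rose by 0.58 against control (SE 0.16, adjusted p = 0.0808, edgeR) and by 0.57 against 40% tumors (SE 0.13, adjusted p = 0.0482, edgeR). Here tumors 5 and 6, at 23.6 and 24.9 CPM, were below control tumor 2, at 26.7 CPM. The call against control was lost without control tumor 1 or 3 or m.12,436 60% tumor 1, 2, 4 or 7 (adjusted p = 0.114 to 0.357, edgeR), and that against 40% tumors without m.12,436 60% tumor 1, 4 or 7 or m.12,436 40% tumor 1 (adjusted p = 0.106 to 0.112, edgeR). *Ccl5*, a chemokine of activated T and NK cells, averaged 7.06 ± 3.62 CPM in m.12,436 60% and 2.69 ± 1.41 CPM in m.12,436 40% tumors, a rise of 1.39 (SE 0.37, adjusted p = 0.0926, edgeR). *Lcp2*, the adaptor SLP-76 of receptor signalling in T cells and other blood cells, was 0.38 higher between the same groups (SE 0.10, adjusted p = 0.0827, edgeR). Leaving out 1 tumor ended the call of *Ccl5* for 8 of the 14 mutant tumors (adjusted p up to 0.183, edgeR) and that of *Lcp2* for 8 of them (up to 0.175). Among the other alternatives, *Ccl5* was not called with the replicate block (1.31, adjusted p = 0.123, edgeR) or with only the 2 groups in the fit (1.39, adjusted p = 0.121, edgeR). *Il2rg* against control was not called in either (adjusted p = 0.156 and 0.104, edgeR). Without a filter on low counts *Srgn* against control, *Il2rg* in both comparisons and *Ccl5* were not called (adjusted p = 0.103 to 0.231, edgeR). With the melanocyte genes as a covariate, chosen after seeing the data, *Srgn* and *Il2rg* against control and *Ccl5* were not called (adjusted p = 0.510, 0.573 and 0.104, edgeR). With the *Ptprc* covariate 0 of these calls remained. *Srgn* was then at 0.52 against control and 0.53 against m.12,436 40% tumors, *Il2rg* at 0.11 and 0.20, *Lcp2* at 0.12 and *Ccl5* at 0.38.

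**Figure D5:**
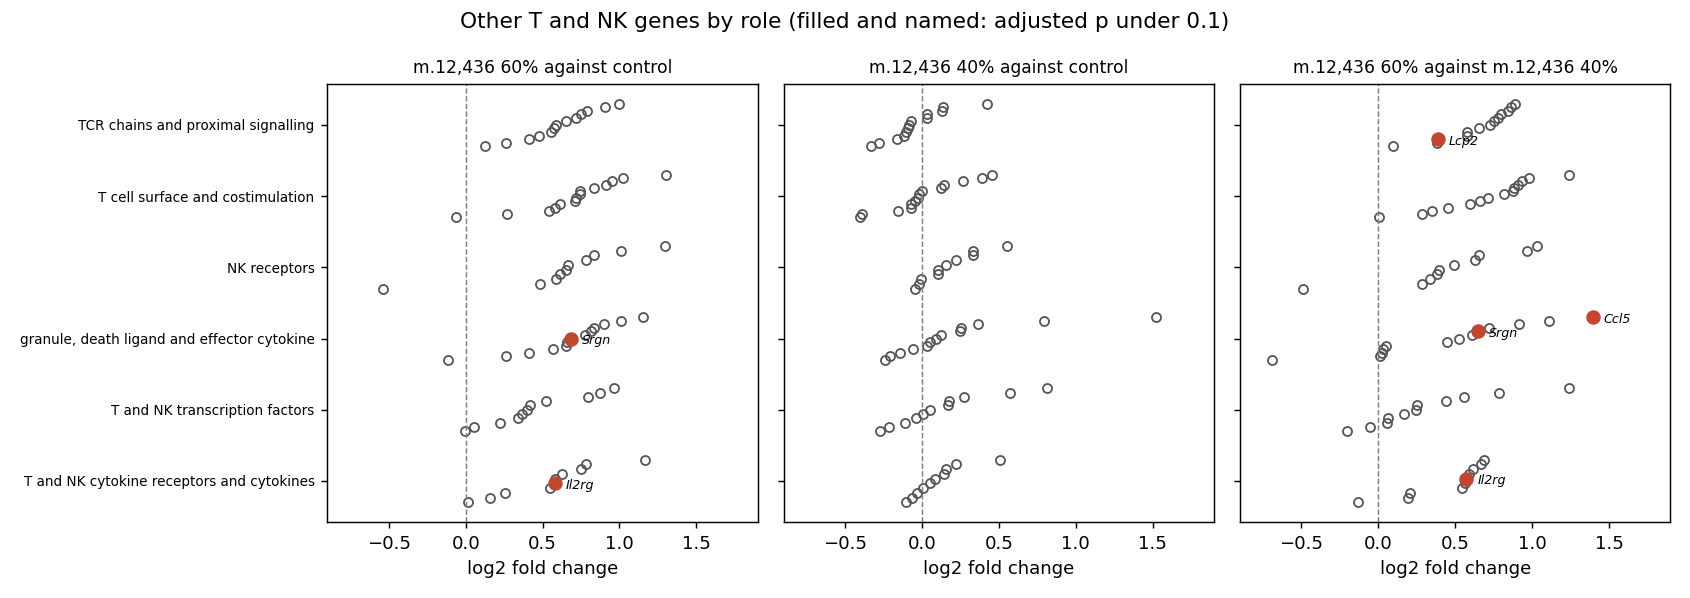
Fitted log2 fold change (horizontal axis) of the 71 further T and NK genes tested, by role, in the 3 comparisons; filled points passed an adjusted p of 0.1. Most points are above 0 in both comparisons of m.12,436 60% tumors, and 2 and 4 passed.

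By role, all 13 tested genes of receptor chains and proximal signalling were above 0 in m.12,436 60% against control tumors (median 0.58), with *Trbc1* at 1.00 (adjusted p = 0.318) and *Lcp2* at 0.27 (adjusted p = 0.274). *Trbc1* and its near-identical copy *Trbc2* can share reads, so that their split is uncertain. Of surface and costimulatory genes, 13 of 14 were above 0 (median 0.73), led by *Cd5*, a brake on receptor signalling, at 1.30 (adjusted p = 0.238), and *Cd96*, at 0.91 (adjusted p = 0.262). NK receptors gave 9 of 10 (median 0.66), with *Klre1* at 1.30 (adjusted p = 0.175). *Klra4*, the exception at −0.54 (adjusted p = 0.279), also had 144 to 312 reads in cultured melanoma cells. Granule and effector genes gave 12 of 13 (median 0.68), with *Serpinb9*, an inhibitor of granzyme B that had 162 to 345 reads in cultured cells, at 0.41 (adjusted p = 0.174). Transcription factors gave 10 of 11 (median 0.40), with *Runx3* at 0.42 (adjusted p = 0.167) and *Tbx21*, which encodes T-bet, at 0.96 (adjusted p = 0.251). Cytokine and receptor genes gave 10 of 10 (median 0.58), with *Il12rb1* at 0.79 (adjusted p = 0.212). All these p are from edgeR's test. Between the mutant groups *Tbx21* had a log2 fold change of 1.24 (adjusted p = 0.105, edgeR), which was not called.

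The pan-leukocyte genes (4 of 4 tested, 0 called) were all higher at an unadjusted p under 0.05 in both comparisons of m.12,436 60% tumors. Of all genes, 8.0% were higher at that level against control and 6.97% against m.12,436 40% tumors. The pan-leukocyte genes summed to 345 to 531 CPM in control, 370 to 486 CPM in m.12,436 40% and 422 to 749 CPM in m.12,436 60% tumors. Macrophage genes (8 of 8 tested, 0 called) summed to 1227 to 1508, 1202 to 1514 and 1049 to 1809 CPM. At an unadjusted p under 0.05, 1 of the 8 (*Csf1r*, 0.32) was higher and 1 (*Mrc1*, −0.79) lower in m.12,436 60% than in control tumors (1297 and 1348 of all 16213 genes). Against m.12,436 40% tumors 4 of the 8 were higher and 0 lower (1130 and 1155 of all genes). Dendritic cell genes (8 of 8, 0 called) summed to 22.5 to 32.1, 24.0 to 36.0 and 20.0 to 39.1 CPM, of which *Clec9a* also had up to 259 reads in cultured cells. Neutrophil genes (4 of 6 tested, 0 called) gave 12.9 to 29.7, 10.6 to 39.2 and 9.85 to 26.8 CPM, and B cell genes (2 of 7 tested, 0 called) 1.26 to 2.00, 0.878 to 1.79 and 0.929 to 2.52 CPM.

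Mast cell and basophil genes (5 of 6 tested, 0 called) summed to 10.5 to 82.8, 26.8 to 84.1 and 3.51 to 53.6 CPM in the same order. Endothelial genes (5 of 5, 0 called) gave 171 to 260, 148 to 258 and 134 to 223 CPM, keratinocyte genes (1 of 4 tested, 0 called) 2.33 to 3.06, 2.07 to 2.82 and 1.76 to 2.59 CPM, and cell cycle genes (5 of 5, 0 called) 821 to 1110, 736 to 995 and 690 to 885 CPM. At an unadjusted p under 0.05, 4 of the 5 cell cycle genes were lower in m.12,436 60% than in control tumors, 1 of them without overlap, and 2 lower than in m.12,436 40% tumors. Of all 16213 genes, 1348 and 1155 were lower at that level in these comparisons, and 660 had no overlap, in either direction, against control. Skeletal muscle genes (6 of 6, 0 called) ran from 2.33 to 143 CPM in control and from 2.33 to 229 CPM in m.12,436 60% tumors. Of the melanocyte genes (2 of 7 tested) *Pmel* fell by 2.21 in m.12,436 60% against control tumors (adjusted p = 0.0456, edgeR). It was at 2.88 ± 3.96 CPM in control tumors (SD, n = 4), and without control tumor 3 the difference was −0.56 (adjusted p = 0.559, edgeR). In m.12,436 40% against control tumors it was −2.75, with no overlap (adjusted p = 0.774, edgeR). With the muscle genes as a covariate, chosen after seeing the data, *Cd3g* and *Nkg7* passed between the mutant groups, with fitted differences of 1.52 (adjusted p = 0.0845, edgeR) and 1.16 (adjusted p = 0.0703, edgeR). The part of the other genes in the members' values was not tested.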

How the data were processed

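RNA of tumor fragments and cell pellets was extracted and sequenced by GeneWiz. Per the paper's methods the authors aligned reads to GRCm39 with STAR, counted them on Ensembl genes with featureCounts and deposited 1 table of raw counts. Of its 47 columns, 22 were used (18 tumors and 4 control cultures) and 25 were not, because their names match no single sample of the labels or these comparisons do not need them. Gene positions and exon lengths come from GENCODE vM39. Counts were fitted in R 4.3.3 with edgeR 4.0.16 (TMM scaling, filterByExpr, robust quasi-likelihood test), all 18 tumors in one fit, two-sided, with Benjamini-Hochberg adjustment over 16213 genes and a threshold of 0.1, the level used in the study. The 95% intervals come from the same fit. Log2 CPM used a prior count of 2. The test was checked on simulated data. Alternatives were limma-voom (limma 3.58.1), DESeq2 1.42.0, other scaling, filters and thresholds, a replicate block, covariates, and tumors left out. The text names all 10 members, pathway genes called in any comparison and the 2 with the smallest p per role in 60% against control, the called genes and summed levels of other-cell lists, and the 5 nearest patterns of *Cd3e*, *Cd8b1* and *Gzmb* among genes with a mean log2 CPM of at least 0. Some items that these rules name are not reported here. Members and lists were chosen with earlier results of these data known. The study gives equal numbers of animals and tumors in its growth experiments, but the labels do not tie these tumors to mice, so the p values measure the spread between these tumors. The labels do not say whether same-numbered tumors of different groups share an animal or a batch. The mean correlations of their deviations were not above 0, over 4 to 7 pairs.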

Additional observations from a re-analysis of the deposited data

Results flagged for a closer look

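Within each tumor group, the levels of the 10 members, of *Ptprc* and the total counts were searched for a tumor far from the rest, 36 groups of values in all, of which chance flags about 1 in 20. Of these 1 was found. *Cd4* in m.12,436 40% tumor 5 was 7.53 CPM, where the other 6 tumors of the group lay between 2.23 and 4.14 CPM, a gap of 0.639 of the whole range, above Dixon's critical value for 7 samples. The same tumor had *Cd8a* at 2.06 CPM, the median of the group, and the lowest share of *Cd8a* among reads of both coreceptors. Without it, the *Cd4* difference between m.12,436 40% and control tumors was −0.24 in place of 0.02.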

How the results depend on the processing

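Depth limits the members, with as few as 6 reads of *Cd4*, 7 of *Cd8b1* and 10 of *Gzma* in a tumor, and 8 of 10 members had at least 10 reads in every tumor. In the comparisons with control tumors the count of members called stayed at 0 under every alternative run. Between m.12,436 60% and 40% tumors it moved from 0 to 2 with DESeq2 and to 2 with muscle genes as a covariate, and ranged from 0 to 2 as each tumor was left out, and it stayed at 0 elsewhere.

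The count of pathway genes called in m.12,436 60% against control tumors, 2, moved to 7 with DESeq2, to 1 with the replicate block and to 0 without a filter, at an adjusted p under 0.05, with the *Ptprc* covariate, with a melanocyte gene covariate, without control tumors 2 and 3 together and without m.12,436 60% tumors 5 and 7 together. It ranged from 0 to 7 as each tumor was left out, with 0 without control tumor 1 or 3, 7 without control tumor 2 and 1 without m.12,436 60% tumor 1, 2, 4 or 7. Against m.12,436 40% tumors the count of 4 moved to 2 without a filter, at an adjusted p under 0.05 and without m.12,436 60% tumors 5 and 7 together, to 0 with the *Ptprc* covariate and to 7 with the muscle covariate. It ranged from 1 to 5 as each tumor was left out, with 1 without m.12,436 60% tumor 1, 4 or 7 or m.12,436 40% tumor 1, and 2 without m.12,436 60% tumor 2 or m.12,436 40% tumor 5 or 6. In m.12,436 40% against control tumors it was 0 throughout. The muscle and melanocyte covariates and the pairs of tumors left out were chosen after seeing the data. The cause of these moves was not tested.

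With the *Ptprc* covariate the log2 fold changes of m.12,436 60% against control tumors turned to −0.72 (*Cd3e*), −0.53 (*Cd3d*), −0.55 (*Cd3g*), −1.22 (*Cd4*), −0.75 (*Cd8a*), −0.75 (*Cd8b1*), −0.72 (*Gzma*), −0.23 (*Gzmb*), −0.30 (*Prf1*) and −0.37 (*Nkg7*). Against m.12,436 40% tumors they turned to −0.35 (*Cd3e*), −0.40 (*Cd3d*), −0.15 (*Cd3g*), −1.20 (*Cd4*), −0.10 (*Cd8b1*), −0.66 (*Gzma*), −0.26 (*Gzmb*) and −0.37 (*Prf1*), and with limma-voom to −0.11 (*Cd4*). *Pmel*, itself one of the melanocyte genes, turned to 0.11 in m.12,436 60% against control tumors with the melanocyte covariate. In m.12,436 40% against control tumors, signs turned with the *Ptprc* covariate (*Cd3d* −0.13, *Cd4* −0.016, *Gzma* −0.056), with the muscle covariate (*Cd3d* −0.36, *Cd4* −0.28, *Gzmb* −0.0055, *Prf1* −0.052), without control tumors 2 and 3 together (*Cd3e* 0.18, *Cd8b1* 0.016) and with the replicate block (*Cd3e* 0.033, *Cd3g* 0.018, *Nkg7* 0.0016). As each tumor was left out, signs turned there for *Cd3e* (−0.36 to 0.45), *Cd3d* (−0.20 to 0.57), *Cd3g* (−0.44 to 0.25), *Cd4* (−0.29 to 0.87), *Cd8b1* (−0.42 to 0.10) and *Nkg7* (−0.32 to 0.059). For *Cd4* the range was −0.074 to 1.09 in m.12,436 60% against control and −0.049 to 0.48 against m.12,436 40% tumors.

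The replicate block (replicate number as a term) left the count of members called at 0 in each comparison. The mean correlation of same-numbered tumors' deviations was −0.156 (60% and control, 4 pairs), −0.0058 (40% and control, 4 pairs) and −0.026 (60% and 40%, 7 pairs). So few pairs cannot decide whether the numbers pair the tumors.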
